A study of Mus musculus with 15 samples.

Results

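Aminoacyl tRNA synthetases are the enzymes that join each amino acid to its own tRNA. Their genes were taken from a list of 36 symbols, 20 for cytosolic and 16 for mitochondrial enzymes. The rule went by symbol and not by measured values, but it was chosen with earlier results of these data known. Of these, 35 were found in the table of 14392 genes, which holds only genes above 1 FPKM, a level scaled to exon length and to the mapped fragments of the library, in at least 1 library, so all 35 had passed that filter. Aars2, for the mitochondrial alanine enzyme, was not in the table. Symbols of the mitochondrial enzymes end in 2. Gars and Kars each encode both the cytosolic and the mitochondrial form and were counted with the 20 cytosolic genes.

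RNA was sequenced by Smart-seq2 from mouse zygotes and 2-cell embryos of WT (Usp16+/+) and cKO (Usp16fl/fl;Gdf9-Cre) females, with 2 libraries in each of 4 groups and 10 embryos in each library. Usp16 encodes a deubiquitinase of histone H2A, and the question was how its loss from the oocyte changes RNA levels in the embryo. Both kinds of female were C57BL/6, were 21 to 23 days old and were superovulated, and the embryos were held in KSOM medium. The sires were WT, so cKO embryos lacked maternal Usp16 and carried an intact paternal allele. Cre was driven by the Gdf9 promoter, which acts in oocytes from the primordial follicle stage on. FPKM carry no read counts, and the sequencing depth is not known here. Nothing states that the 2 libraries of a group came from separate females, and p-values here measure the spread between these libraries. In bulk libraries, fewer cells with an RNA and less of it per cell cannot be told apart.

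Each synthetase charges tRNA in the compartment where it works, and the cytosol and the mitochondrion use separate sets of tRNA. Several cytosolic enzymes are held together with scaffold proteins in a multi-synthetase complex, while the mitochondrial enzymes are made from nuclear genes and imported. In the mouse, RNA stored by the oocyte is largely cleared while the embryo's own genes are switched on around the 2-cell stage, so RNA levels in this period reflect both stores and new transcription.

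Usp16 itself was at 184 and 187 FPKM in WT and 16.8 and 22.0 in cKO zygotes, and 168 and 183 in WT and 168 and 84.8 in cKO 2-cell embryos. In zygotes it was 9.58-fold lower in cKO, with a log2 difference of -3.21 ± 0.16 and an adjusted p of 0.00342. Differences are given throughout on the log2(FPKM + 1) scale with the SE of limma, n = 2 libraries per group, and p-values adjusted over all 14392 genes. That scale understates the change of genes with low values. The zygote call was lost without cKO zygote library 1 (log2 difference -3.02), with 1 spread for all groups and with the 4 zygote libraries fitted alone. At the 2-cell stage the log2 difference between cKO and WT was -0.55 ± 0.53, adjusted p = 0.564. Usp16 was thus low in both cKO zygote libraries, while 1 of the 2 cKO 2-cell libraries lay at the WT level and the other at 84.8 FPKM. From zygote to 2-cell embryo it rose in cKO by 2.57 ± 0.46 (adjusted p = 0.00657), a call that was lost without cKO 2-cell library 1 (log2 difference 2.08) and with the 4 cKO libraries fitted alone. The interaction of genotype and stage was 2.65 ± 0.55, adjusted p = 0.0522.

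Replicates were closer in zygotes than in cKO 2-cell embryos. The Spearman correlation across genes between the 2 libraries of a group was 0.979 in WT and 0.984 in cKO zygotes, and 0.963 in WT and 0.886 in cKO 2-cell embryos. Genes more than 3-fold apart between the 2 libraries numbered 41, 20, 199 and 1912 in the same order. In cKO 2-cell embryos they included Farsa and Sars2. Values under 1 had been set to 1 by the authors, and 10 and 11 of the 35 synthetase genes lay at this floor in WT and 9 and 11 in cKO zygotes, and 4 and 4 in WT and 1 and 6 in cKO 2-cell embryos. Among all genes 29.5% to 33.0% lay at the floor in zygotes, beside 25.7% to 31.4% of the 35, and 11.4% and 11.9% in WT 2-cell embryos, beside 11.4% of the 35 in both, so in these groups the synthetases followed the table. In cKO 2-cell embryos it was 25.6% and 29.5% of all genes, beside 2.86% and 17.1% of the 35. Of the synthetase genes at the floor in each zygote library, 6 to 8 were mitochondrial.

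Cytosolic enzymes covered a wide range of levels in zygotes. Farsb, for the beta subunit of the cytosolic phenylalanine enzyme, was the highest of the cytosolic genes in zygotes, though not in 2-cell embryos. It had 243 and 216 FPKM in WT and 197 and 185 in cKO zygotes, and 75.8 and 75.1 in WT and 60.1 and 42.5 in cKO 2-cell embryos. It stood above its partner Farsa, the alpha subunit, which had 28.1 and 21.3 FPKM in WT and 21.8 and 16.4 in cKO zygotes, and 14.7 and 14.5 in WT and 18.1 and 2.50 in cKO 2-cell embryos. Nars, the asparagine enzyme, followed Farsb in zygotes, and had 94.1 and 80.4 FPKM in WT and 90.9 and 80.9 in cKO zygotes, and 61.8 and 57.3 in WT and 83.2 and 53.9 in cKO 2-cell embryos. In 2-cell embryos Kars had the highest cytosolic mean in WT and Rars in cKO. Among cytosolic genes the lowest was Vars, the valine enzyme, at 1 FPKM in 7 libraries and 1.52 in cKO 2-cell library 1. Cars, for cysteine, was also low, with 4.96 and 4.09 FPKM in WT and 5.01 and 4.63 in cKO zygotes. Mars, for methionine, and Yars, for tyrosine, were at 1 FPKM in all 4 zygote libraries.

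Mitochondrial genes were mostly near the floor in zygotes, apart from a pair of abundant ones. Lars2, the mitochondrial leucine enzyme, had 864 and 1181 FPKM in WT and 503 and 435 in cKO zygotes, and 2527 and 1476 in WT and 1142 and 602 in cKO 2-cell embryos, the highest mean of all 35 genes. Fars2, the mitochondrial phenylalanine enzyme, came next among mitochondrial genes with 116 and 93.7 FPKM in WT and 79.6 and 80.1 in cKO zygotes, and 92.5 and 90.7 in WT and 40.6 and 52.4 in cKO 2-cell embryos. Rars2, for arginine, lay between 2.68 and 17.6 FPKM over the 8 libraries. Ears2, Hars2, Iars2, Mars2 and Nars2, the enzymes for glutamate, histidine, isoleucine, methionine and asparagine, were at 1 FPKM in all 4 zygote libraries. Nars2 stayed at 1 FPKM in all but cKO 2-cell library 1 (1.54) and Vars2, for valine, in all but cKO zygote library 1 (1.07).

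**Figure D1:**
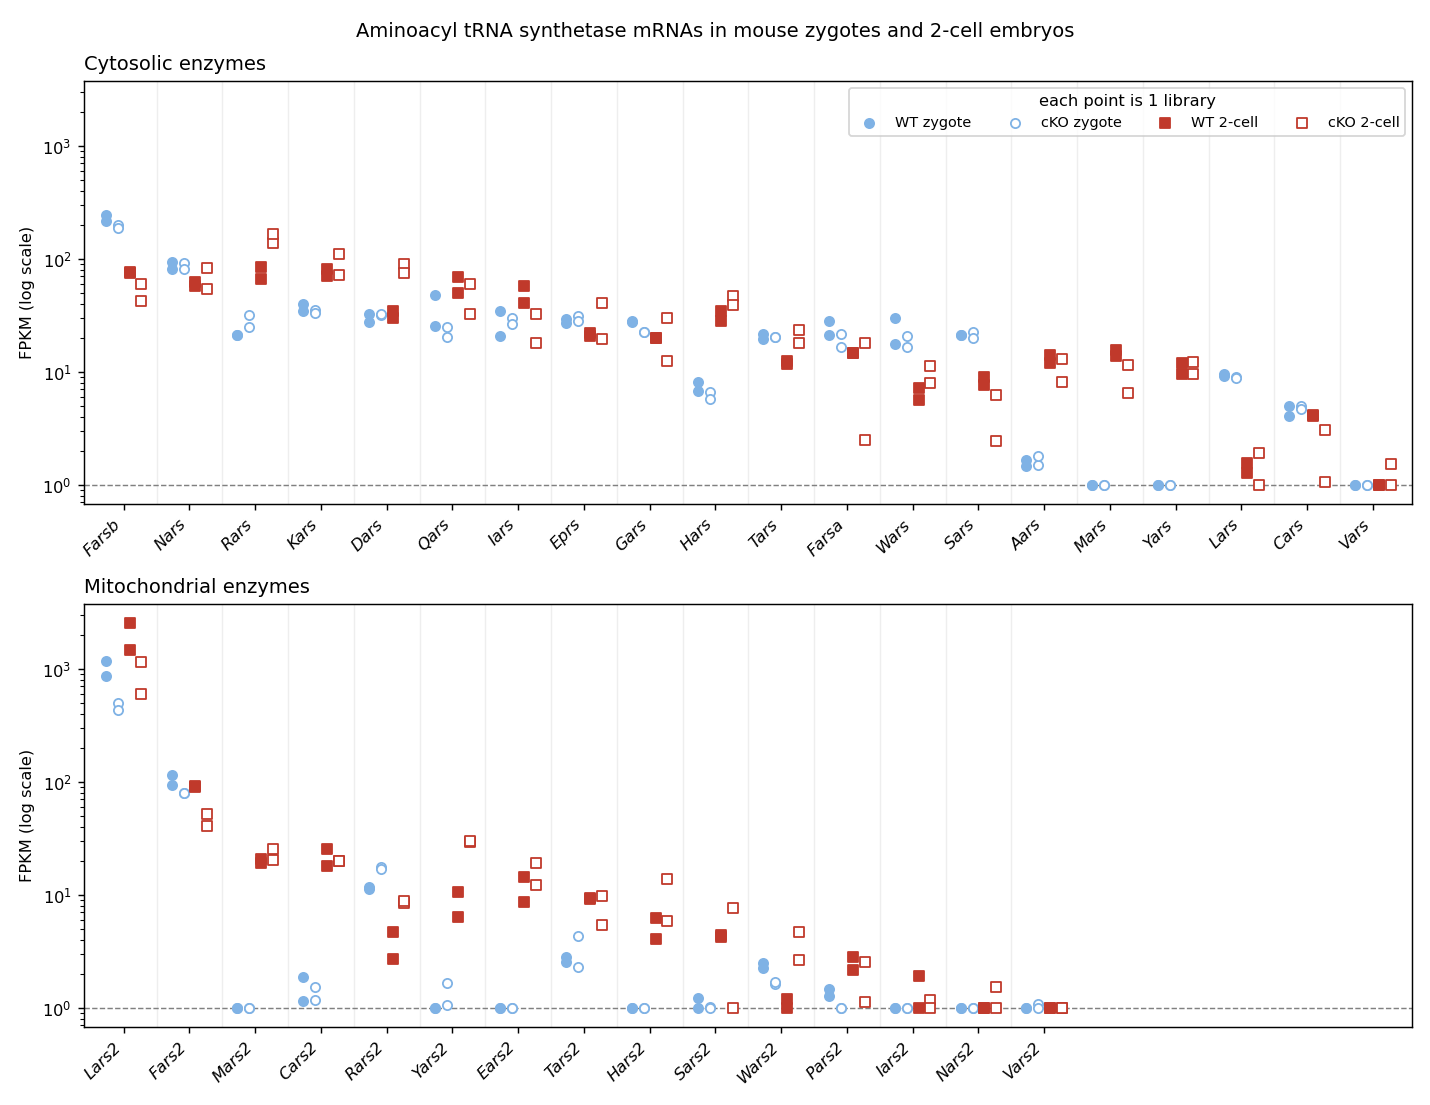
FPKM of the 35 synthetase genes in each library on a log axis, with 1 point per library. Colour and shape give the stage, and filled points are WT and open points cKO. By the mean over the 8 libraries Lars2, Farsb, Fars2 and Nars are the highest, Lars2 at up to 2527 FPKM, and many mitochondrial genes sit at 1 FPKM in zygotes.

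The median of the cytosolic genes exceeded that of the mitochondrial genes in every library. On the log2(FPKM + 1) scale the difference of medians was 3.49 and 3.46 in WT zygotes (mean 3.47, SD 0.02), and 3.48 and 3.39 in cKO zygotes (mean 3.44, SD 0.06). It was 1.71 and 1.30 in WT 2-cell embryos (mean 1.51, SD 0.29), and 1.66 and 0.58 in cKO 2-cell embryos (mean 1.12, SD 0.76). The gap was thus smaller in all 4 libraries of 2-cell embryos than in all 4 of zygotes, and within each stage the ranges of WT and cKO overlapped. An exact permutation test of 2 libraries against 2 cannot go below p = 0.333. In 2 of the 4 zygote libraries the mitochondrial median lay at the floor, so the gap there is a lower bound. In WT the cytosolic median moved from 4.63 and 4.46 in zygotes to 4.21 and 4.16 in 2-cell embryos, and the mitochondrial median from 1.15 and 1 to 2.50 and 2.86.

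For most amino acids, separate genes encode the enzymes of the 2 compartments, which gives 16 pairs of a cytosolic and a mitochondrial gene. Eprs was paired with both Ears2 and Pars2, and Fars2 with both Farsa and Farsb. The cytosolic gene was the higher in all 8 libraries in 8 of these pairs. By group means it was the higher in 11 pairs in zygotes and 10 pairs in 2-cell embryos, in either genotype. The others include ties with both genes at the floor. These were methionine, valine and tyrosine in WT zygotes, methionine in cKO zygotes and valine in WT 2-cell embryos. In WT zygotes asparagine had a cytosolic lead, with a mean of 87.2 FPKM for Nars beside Nars2 at the floor, so the ratio of the 2 is a lower bound. Leucine was the reverse, with 9.33 FPKM for Lars and 1023 for Lars2. Cysteine changed order with stage, from 4.52 for Cars and 1.52 for Cars2 in WT zygotes to 4.11 and 21.7 in WT 2-cell embryos.

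From WT zygote to WT 2-cell embryo, 14 of the 35 genes rose and 7 fell at an adjusted p under 0.05 in limma. Over all genes the shares were 36.6% higher and 14.9% lower, against 40% and 20% of the 35, so the counts lay near the background. Of the 20 cytosolic genes 6 rose and 5 fell, and of the 15 mitochondrial genes 8 rose and 2 fell. The median log2 difference was -0.05 for cytosolic and 0.93 for mitochondrial genes, beside 0.27 for all genes, and with median-ratio scaling -0.29, 0.60 and 0.03, and with quantile normalization -0.58, 0.52 and -0.04. By the 3-fold rule on group means, 12 were higher and 4 lower, where 26% and 8.78% of all genes were. The difference between the compartments was not tested. By catalytic class, 7 of the 18 class I genes rose and 4 fell, and 7 of the 16 class II genes rose and 3 fell.

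Among the 8 enzymes of the multi-synthetase complex, Kars, Mars and Rars rose and Lars fell. Mars, which also charges the initiator tRNA with methionine, had 1 and 1 FPKM in WT zygotes and 15.5 and 13.7 in WT 2-cell embryos. This was at least 14.6-fold higher, with a log2 difference of 2.96 ± 0.20, adjusted p = 9.58e-05. Mars was at the floor in every zygote library and above it in every 2-cell library. Rars, the arginine enzyme, went from 20.9 and 21.0 to 83.7 and 66.5 FPKM, 3.58-fold higher (1.78 ± 0.28, adjusted p = 0.00243). Kars, the lysine enzyme of both compartments, went from 39.8 and 34.3 to 70.2 and 81.8 FPKM (1.02 ± 0.22, adjusted p = 0.00856). Lars, for leucine, was lower, with 9.52 and 9.13 FPKM in WT zygotes and 1.54 and 1.28 in WT 2-cell embryos, 6.61-fold (-2.10 ± 0.18, adjusted p = 0.000238). None of these 4 genes overlapped between the stages in WT, where both 2-cell libraries lay above both zygote libraries for 49.4% of all genes and below for 26.4%.

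The other 4 enzymes of the complex did not pass the test. Dars, for aspartate, had 27.5 and 32.5 FPKM in WT zygotes and 30.1 and 34.7 in WT 2-cell embryos, a log2 difference of 0.11 ± 0.20, adjusted p = 0.686, whose sign turned under median-ratio scaling and quantile normalization. Iars, for isoleucine, had 34.7 and 20.7, then 40.8 and 57.6 FPKM (0.83 ± 0.43, adjusted p = 0.149). Qars, for glutamine, had 48.0 and 25.5, then 49.3 and 68.9 FPKM (0.72 ± 0.52, adjusted p = 0.287). Eprs, a single protein with both the glutamate and the proline enzyme, had 26.9 and 29.3, then 22.0 and 20.8 FPKM (-0.38 ± 0.24, adjusted p = 0.226). Iars and Qars were above and Eprs below the zygote range in both WT 2-cell libraries, as were 49.4% and 26.4% of all genes.

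Of the 12 cytosolic genes outside the complex, Aars, Hars and Yars rose and Farsb, Sars, Tars and Wars fell. Yars had 1 and 1 FPKM in WT zygotes and 9.53 and 12.1 in WT 2-cell embryos, at least 10.8-fold higher (2.55 ± 0.18, adjusted p = 0.000115). Aars, for alanine, went from 1.66 and 1.48 to 14.1 and 11.9 FPKM, 8.27-fold higher (2.44 ± 0.23, adjusted p = 0.000325). Hars, for histidine, went from 8.11 and 6.81 to 34.4 and 28.0 FPKM, 4.19-fold higher (1.93 ± 0.24, adjusted p = 0.000872). These 3 were low in zygotes. They lay above the zygote range in both WT 2-cell libraries, as did 49.4% of all genes.

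The 4 cytosolic genes that fell outside the complex started from higher zygote levels. Wars, for tryptophan, had 29.9 and 17.7 FPKM in WT zygotes and 5.60 and 7.20 in WT 2-cell embryos, 3.72-fold lower (-1.71 ± 0.44, adjusted p = 0.0183). Farsb went from 243 and 216 to 75.8 and 75.1 FPKM, 3.04-fold lower (-1.59 ± 0.20, adjusted p = 0.000885). Sars, for serine, went from 21.1 and 21.0 to 8.94 and 7.58 FPKM (-1.26 ± 0.25, adjusted p = 0.00712). The smallest of these 4 falls was that of Tars, for threonine, from 19.6 and 21.5 to 12.4 and 11.6 FPKM (-0.73 ± 0.18, adjusted p = 0.0167). Both WT 2-cell libraries lay below both zygote libraries for each of the 4, as for 26.4% of all genes. Cars, Farsa, Gars, Nars and Vars did not pass, with log2 differences between -0.70 (Farsa) and 0 (Vars, at the floor in both groups). Gars, the glycine enzyme of both compartments, had 28.4 and 27.4, then 19.9 and 19.7 FPKM.

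Most mitochondrial genes that rose in WT came from the floor or near it. Mars2 had 1 and 1 FPKM in WT zygotes and 20.6 and 19.0 in WT 2-cell embryos, at least 19.8-fold higher, the largest rise of the 35 (3.37 ± 0.19, adjusted p = 6.69e-05). Cars2, for cysteine, went from 1.88 and 1.15 to 17.9 and 25.6 FPKM, 14.3-fold higher (3.17 ± 0.33, adjusted p = 0.000437). Yars2, for tyrosine, went from 1 and 1 to 10.5 and 6.41 FPKM, at least 8.48-fold higher (2.21 ± 0.32, adjusted p = 0.00181). None of these 3 overlapped between the stages. Both WT 2-cell libraries lay above both zygote libraries for 49.4% of all genes. Ears2 reached 14.4 and 8.56 FPKM and Hars2 4.07 and 6.27, both from the floor, with log2 differences of 2.60 and 1.60 (adjusted p = 0.000292 and 0.00179). Smaller rises that passed were those of Tars2 for threonine (2.81 and 2.57 to 9.16 and 9.38 FPKM), Sars2 for serine (1.21 and 1 to 4.41 and 4.23) and Pars2 for proline (1.28 and 1.47 to 2.82 and 2.16). Their log2 differences were 1.48, 1.34 and 0.55, and the sign for Pars2 turned under quantile normalization (-0.35).

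The 2 mitochondrial genes that fell in WT were Rars2 and Wars2. Rars2 had 11.8 and 11.1 FPKM in WT zygotes and 4.66 and 2.68 in WT 2-cell embryos, 3.12-fold lower (-1.45 ± 0.23, adjusted p = 0.00262), while its cytosolic counterpart Rars rose. Wars2, for tryptophan, went from 2.48 and 2.23 to 1.21 and 1 FPKM (-0.68 ± 0.14, adjusted p = 0.00862), and its cytosolic counterpart Wars fell too. Lars2 had 864 and 1181, then 2527 and 1476 FPKM and did not pass (0.93 ± 0.38, adjusted p = 0.0874), although both 2-cell libraries lay above both zygote libraries, as for 49.4% of all genes. Fars2 did not pass either, with 116 and 93.7, then 92.5 and 90.7 FPKM (-0.18 ± 0.22, adjusted p = 0.519). Iars2 had 1 and 1, then 1 and 1.89 FPKM, and Nars2 and Vars2 were at the floor at both stages.

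The counts of the WT stage comparison rested on both WT 2-cell libraries. Fewer calls were also made over all genes without either of them. Without WT 2-cell library 1 or 2, of the 14 that rose, Mars, Yars, Ears2 and Mars2 kept their calls, and of the 7 that fell Lars did, with Rars2 too without library 1. Without cKO 2-cell library 1 or 2, the calls for Tars2 and Wars were lost and 13 rose and 6 fell. Without WT zygote library 1, Iars and Qars rose as well, and without library 2, Lars2 rose and Nars fell as well. The call for Wars was also lost with the 4 WT libraries fitted alone, that for Tars2 under each of the 3 scalings, that for Pars2 under median-ratio scaling and that for Sars2 under quantile normalization, and Pars2 and Sars2 with 1 spread for all groups. By the 3-fold rule 2 were lower without WT zygote library 1 (Lars and Rars2). Scaling changed the balance, with 12 higher and 11 lower under median-ratio scaling and 12 higher and 12 lower under quantile normalization. Over all 14392 genes, 5269 were higher and 2141 lower in the main fit. They numbered 4336 and 2945 under median-ratio scaling, and 3753 and 4328 under quantile normalization. These scalings shifted the median of all genes by -0.25 and -0.31, and under the latter the median of the 35 went from 0.27 to -0.05.

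**Figure D2:**
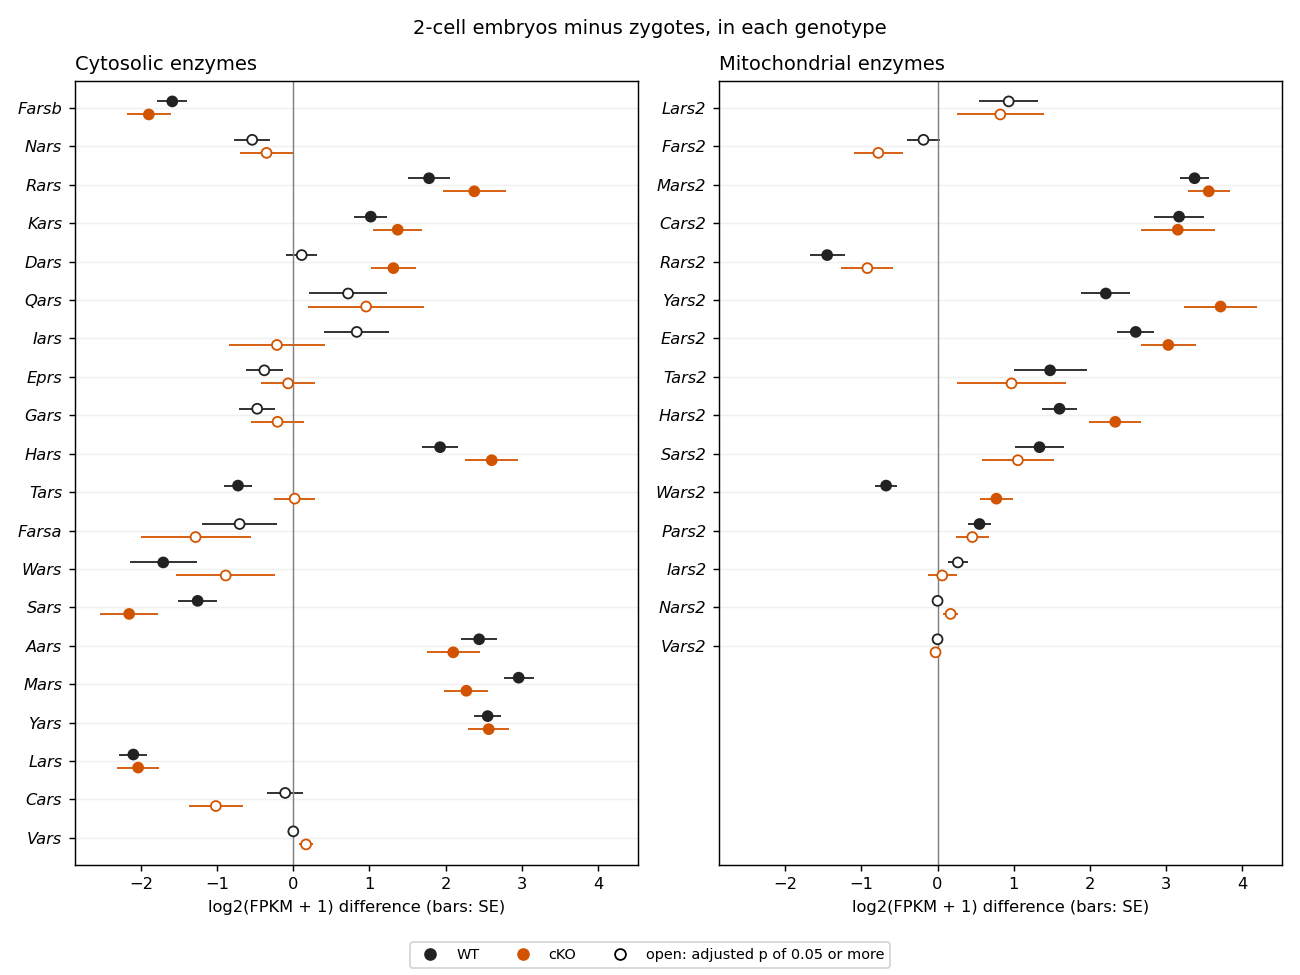
Log2 difference in FPKM + 1 between 2-cell embryos and zygotes for each synthetase gene, in WT and in cKO, with bars for the SE of limma. Mars2 is the highest in WT at 3.37 and Lars the lowest at -2.10, and Wars2 lies below 0 in WT and above 0 in cKO.

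From cKO zygote to cKO 2-cell embryo, 13 of the 35 rose and 3 fell in limma, beside 20.7% and 18.2% of all genes. Of the cytosolic genes 7 rose and 3 fell, and of the mitochondrial genes 6 rose and 0 fell, where 7 mitochondrial genes had an unadjusted p under 0.05. The 3-fold rule gave 11 higher and 3 lower, beside 22.8% and 19.2% of all genes. The median log2 difference was 0.82 for mitochondrial and -0.03 for cytosolic genes (0.09 under median-ratio scaling), with 0 for all genes.

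The WT and cKO stage comparisons share no library. Of the 14 that rose in WT, 11 (78.6%) rose in cKO, and these were 84.6% of the 13. Over all genes, 51.7% of those that rose in WT rose in cKO, and these were 91.3% of the cKO list. They were Aars, Hars, Kars, Mars, Rars and Yars among cytosolic genes, and Cars2, Ears2, Hars2, Mars2 and Yars2 among mitochondrial ones. Of the 7 that fell in WT, 3 (42.9%) fell in cKO, namely Farsb, Lars and Sars, which were all 3 of the cKO list, while over all genes 78.0% of those that fell in WT fell in cKO, 63.6% of the cKO list. Wars2 fell in WT and rose in cKO, and Dars rose in cKO without a call in WT. Pars2, Sars2, Tars2, Rars2, Tars and Wars were called in WT alone, and the interaction passed for none of these 6.

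Yars2 and Mars2 rose most in cKO. Yars2 went from 1.65 and 1.06 FPKM in cKO zygotes to 29.6 and 29.8 in cKO 2-cell embryos, 21.9-fold higher (3.72 ± 0.48, adjusted p = 0.00215). Mars2 went from 1 and 1 to 20.3 and 25.2 FPKM, at least 22.7-fold (3.56 ± 0.28, adjusted p = 0.00062). Rars went from 32.0 and 25.0 to 138 and 165 FPKM (2.38 ± 0.41, adjusted p = 0.00594). Both cKO 2-cell libraries were above both cKO zygote libraries for these 3, as for 32.3% of all genes, with 35.5% below. Dars went from 32.0 and 32.6 to 89.8 and 74.6 FPKM (1.31 ± 0.30, adjusted p = 0.0158). Wars2 went from 1.62 and 1.70 to 4.67 and 2.64 FPKM (0.77 ± 0.21, adjusted p = 0.0305). Lars went from 9.05 and 8.75 to 1.91 and 1 FPKM (-2.04 ± 0.27, adjusted p = 0.00249), and Sars from 22.5 and 19.9 to 6.17 and 2.46 (-2.16 ± 0.38, adjusted p = 0.00614), so both fell in each genotype. Farsa, with 21.8 and 16.4 FPKM in cKO zygotes, had 18.1 and 2.50 in cKO 2-cell embryos and did not pass (-1.28 ± 0.72, adjusted p = 0.214).

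The methionine, tyrosine and histidine enzymes also rose in cKO. Mars had 6.46 and 11.5 FPKM in cKO 2-cell embryos, at least 8.98-fold above the zygotes (2.27 ± 0.29, adjusted p = 0.00209). Yars reached 12.3 and 9.53 FPKM from the floor (2.57 ± 0.27, adjusted p = 0.00119). Hars went from 6.61 and 5.77 to 46.9 and 38.8 FPKM (2.61 ± 0.35, adjusted p = 0.00247). For each, as for 32.3% of all genes, both cKO 2-cell libraries were above both zygote libraries. Farsb fell from 197 and 185 to 60.1 and 42.5 FPKM (-1.90 ± 0.29, adjusted p = 0.00372). Wars had 20.5 and 16.6, then 11.3 and 7.97 FPKM, below the zygotes in both libraries, as 35.5% of all genes were, without a call (-0.89 ± 0.65, adjusted p = 0.335). Cars had 5.01 and 4.63, then 3.03 and 1.05 FPKM and did not pass (-1.02 ± 0.36, adjusted p = 0.0664). Iars, with 29.9 and 26.5, then 32.2 and 18.0 FPKM, and Qars, with 24.9 and 20.1, then 60.0 and 32.7, did not pass either. Among mitochondrial genes, Cars2 went from 1.54 and 1.17 to 19.8 and 19.99 FPKM (3.15 ± 0.48, adjusted p = 0.00385), a rise in both genotypes. Tars2 had 4.34 and 2.32, then 5.36 and 9.71 FPKM without a call in cKO (0.97 ± 0.71, adjusted p = 0.333), and Rars2 had 17.6 and 17.0, then 8.46 and 8.85 (-0.92 ± 0.34, adjusted p = 0.0784).

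Without cKO 2-cell library 1, 11 rose and 5 fell, as the calls for Dars, Kars and Wars2 were lost and Pars2 rose and Cars and Gars fell. Without either WT 2-cell library, 9 rose, as Dars, Kars, Rars and Wars2 lost their calls, and without cKO zygote library 1 the call for Wars2 was lost and Tars2 rose. Without cKO 2-cell library 2, Sars2 rose as well. In cKO 2-cell embryos Sars2 was above the floor only in the library kept (7.68 FPKM), so this call carries no weight. Without either WT zygote library Fars2 fell as well. By the 3-fold rule 10 were higher and 5 lower without cKO 2-cell library 1. Rars, Sars and Wars2 were not called with the 4 cKO libraries fitted alone. Equal-sum scaling, which ended the calls for Dars and Wars2, gave 11 higher and 5 lower, and quantile normalization 12 higher and 5 lower, without Wars2. Over all genes 2542 were higher and 2507 lower under equal-sum scaling, and 3011 and 3185 under quantile normalization. In the main fit these were 2984 and 2623.

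In zygotes, no synthetase gene passed the limma test between cKO and WT. Of the 35, 0 were higher and 0 lower, beside 0.167% and 0.0278% of all genes. Before adjustment, p was under 0.05 for 7 of the 35 and 1565 of all genes. The number called was also 0 with no pseudocount, a stricter filter, each scaling, 1 spread for all groups, the 4 zygote libraries alone, and without each library. By the 3-fold rule it was 0 in both directions, beside 0.104% higher and 0.0486% lower over all genes. The median log2 difference was -0.01 for cytosolic genes and 0 for mitochondrial genes and all genes.

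The cKO zygote libraries both exceeded each WT zygote library for 3 of the 35 genes, beside 15.8% of all genes, and both lay below for 9, beside 10.2% of all genes. The 3 above were Rars, Rars2 and Yars2. Rars2 had 11.8 and 11.1 FPKM in WT and 17.6 and 17.0 in cKO zygotes (0.55 ± 0.12, adjusted p = 0.190), and Rars had 20.9 and 21.0 in WT and 32.0 and 25.0 in cKO (0.41 ± 0.15, adjusted p = 0.371), so both arginine enzymes were the higher in cKO without a call. The 9 below were Farsb, Gars, Hars, Lars, Qars, Fars2, Lars2, Pars2 and Wars2. Lars2 differed most, with 864 and 1181 FPKM in WT and 503 and 435 in cKO zygotes, 2.18-fold lower (-1.11 ± 0.20, adjusted p = 0.134). Fars2 had 116 and 93.7 in WT and 79.6 and 80.1 in cKO (-0.38 ± 0.12, adjusted p = 0.310), and Wars2 2.48 and 2.23 in WT and 1.62 and 1.70 in cKO (-0.34 ± 0.08, adjusted p = 0.195). Qars had 48.0 and 25.5 in WT and 24.9 and 20.1 in cKO (-0.62 ± 0.27, adjusted p = 0.503), with its cKO values just under the lower WT value. Signs for Sars turned under median-ratio and equal-sum scaling, and those for Aars and Sars under quantile normalization.

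At the 2-cell stage, no synthetase gene was called between cKO and WT in limma (0 higher, 0 lower), where 0.834% of all genes were higher and 5.93% lower. Before adjustment, p was under 0.05 for 5 of the 35 and 3650 of all genes. With the 4 libraries of that stage fitted alone, 0 of all 14392 genes were called, so each genotype call at this stage given below was lost there. The median log2 difference of the 35 was 0.00, with 0.01 for cytosolic and 0 for mitochondrial genes, beside -0.30 for all genes. Relative to all genes the synthetase median thus lay higher. Median-ratio scaling shifted the median of all genes by 0.30, quantile normalization by 0.31 and equal-sum scaling by -0.13, and with these the median of the 35 was 0.19, 0.28 and -0.08. Signs turned for 6 genes under median-ratio scaling (Aars, Gars, Qars, Cars2, Pars2 and Tars2), for 7 under quantile normalization (Aars, Gars, Cars2, Iars2, Pars2, Sars2 and Tars2), and for 5 under equal-sum scaling (Kars, Lars, Nars, Yars and Mars2).

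By the 3-fold rule 2 of the 35 were higher and 0 lower in cKO 2-cell embryos, beside 2.84% and 13.5% of all genes. The 2 were mitochondrial. Yars2 had 10.5 and 6.41 FPKM in WT and 29.6 and 29.8 in cKO, 3.50-fold higher (1.73 ± 0.55, adjusted p = 0.117). Wars2 had 1.21 and 1 FPKM in WT and 4.67 and 2.64 in cKO, 3.31-fold higher (1.11 ± 0.24, adjusted p = 0.0522). Both were above the WT range in each cKO library, as were 14% of all genes, and Wars2 was at the low end of the table in WT. The count was 4 under median-ratio scaling, with Dars and Rars2 added, and 0 under equal-sum scaling. Without cKO 2-cell library 1 it was 1 higher (Yars2) and 5 lower (Cars, Farsa, Sars, Lars2 and Sars2), and without WT 2-cell library 2 it was 1 higher (Wars2). Without WT 2-cell library 1 it was 3 higher, with Rars2 added. In limma, Wars2 was called with no pseudocount, median-ratio scaling or quantile normalization, and Dars, Rars, Tars, Rars2, Wars2 and Yars2 were called higher and Fars2 lower with 1 spread for all groups. With 1 spread, 887 of all 14392 genes were higher and 3538 lower. Without cKO 2-cell library 2, Wars2 was called higher. Sars2 was called lower without cKO 2-cell library 1. The cKO library kept had Sars2 at the floor and the one left out had 7.68 FPKM, so this call carries no weight.

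The cKO 2-cell libraries both exceeded each WT 2-cell library for 8 of the 35, beside 14% of all genes, and both lay below for 7, beside 43.4% of all genes. Above were the cytosolic Dars, Hars, Rars, Tars and Wars and the mitochondrial Rars2, Wars2 and Yars2. Dars had 30.1 and 34.7 FPKM in WT and 89.8 and 74.6 in cKO (1.31 ± 0.34, adjusted p = 0.0766), and Rars had 83.7 and 66.5 in WT and 138 and 165 in cKO (1.01 ± 0.47, adjusted p = 0.251). Rars2 had 4.66 and 2.68 FPKM in WT and 8.46 and 8.85 in cKO (1.08 ± 0.39, adjusted p = 0.154). Both arginine enzymes were thus again above the WT range, as in zygotes. Below were Cars, Farsb, Iars, Mars, Sars, Fars2 and Lars2. Iars had 40.8 and 57.6 FPKM in WT and 32.2 and 18.0 in cKO (-0.98 ± 0.73, adjusted p = 0.461), and Sars had 8.94 and 7.58 in WT and 6.17 and 2.46 in cKO (-0.89 ± 0.43, adjusted p = 0.266). Cars had 4.15 and 4.08 FPKM in WT and 3.03 and 1.05 in cKO (-0.83 ± 0.41, adjusted p = 0.271). Lars2 had 2527 and 1476 in WT and 1142 and 602 in cKO (-1.22 ± 0.65, adjusted p = 0.306), and Fars2 had 92.5 and 90.7 in WT and 40.6 and 52.4 in cKO (-0.97 ± 0.37, adjusted p = 0.171). Farsa overlapped, since its cKO values were 18.1 and 2.50 FPKM, on either side of 14.7 and 14.5 in WT (-0.93 ± 0.83, adjusted p = 0.537).

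The interaction asks whether the genotypes differed in the change from zygote to 2-cell embryo. It passed for 1 of the 35 genes as higher and 0 as lower, beside 0.605% and 4.55% of all genes, and 3 of the 35 and 3480 of all genes had an unadjusted p under 0.05. The 1 gene was Wars2, with 2.48 and 2.23 FPKM in WT and 1.62 and 1.70 in cKO zygotes, and 1.21 and 1 in WT and 4.67 and 2.64 in cKO 2-cell embryos. Its interaction was 1.45 ± 0.26, adjusted p = 0.0350, so it was the lower in cKO zygotes and the higher in cKO 2-cell embryos. The call was lost under equal-sum scaling (1.31), without either library of WT zygotes, cKO zygotes or WT 2-cell embryos (1.38 to 1.52), and was not tested under the stricter filter, which Wars2 did not pass. With 1 spread for all groups Dars was called too. The interaction of Yars2 was larger than that of Wars2 but did not pass (1.51 ± 0.57, adjusted p = 0.180), and after these came Dars (1.20 ± 0.36, adjusted p = 0.111) and Iars (-1.05 ± 0.76, adjusted p = 0.457). For Lars2 the interaction was -0.11 ± 0.68, adjusted p = 0.938, beside genotype differences of -1.11 in zygotes and -1.22 in 2-cell embryos. None of these 4 passed, nor did Cars (-0.91 ± 0.43, adjusted p = 0.262), Wars (0.82 ± 0.79, adjusted p = 0.569), Fars2 (-0.59 ± 0.39, adjusted p = 0.413) and Tars2 (-0.51 ± 0.86, adjusted p = 0.762). The median interaction was 0.17 for the 35 and -0.34 for all genes. Median-ratio scaling shifted the latter by 0.31, equal-sum scaling by -0.11 and quantile normalization by 0.35, and the sign for Lars2 turned under median-ratio scaling. Sars2 was called lower for the interaction when cKO 2-cell library 1 was left out. The cKO 2-cell library kept had Sars2 at the floor, so this call carries no weight.

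**Figure D3:**
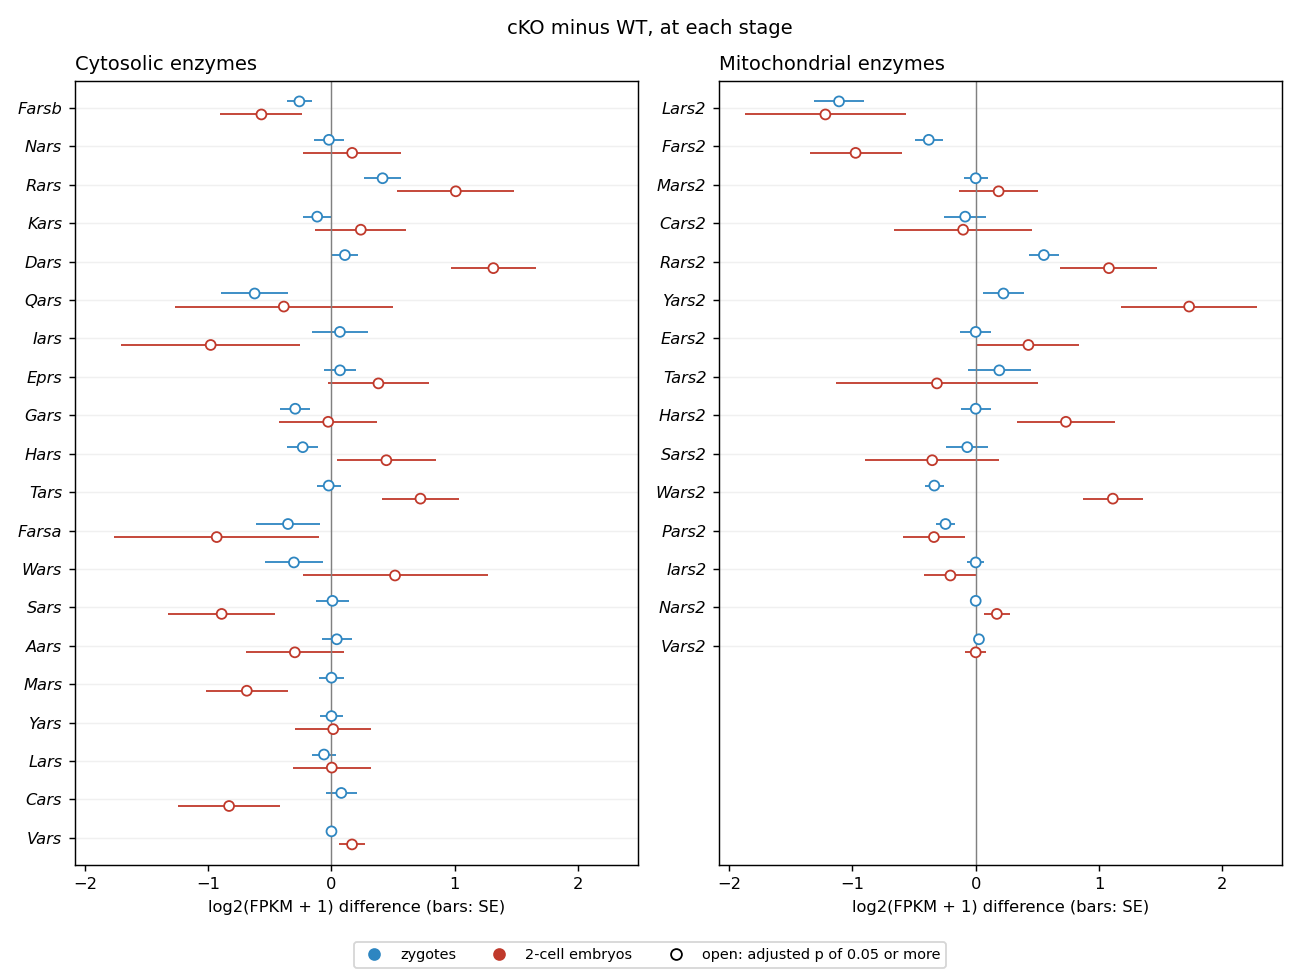
Log2 difference in FPKM + 1 between cKO and WT for each synthetase gene, in zygotes and in 2-cell embryos, with bars for the SE of limma. In zygotes Lars2 is the lowest at -1.11, and at the 2-cell stage Yars2 is the highest at 1.73 and Lars2 the lowest at -1.22.

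Lars2 and Iars share sequence with other places in the genome, which bears on how their FPKM can be read. In mm9, Lars2 lies at chr9:123276058-123371782 on the plus strand, and 398 bases of its 3′ UTR (10.3% of the transcript) had copies of at least 50 bases and 95% identity at 11 other places. The longest was in Gphn at chr12:79451917-79452160. Iars lies at chr13:49777469-49829636 on the plus strand, and 61.3% of its transcript had such copies, the longest at chr1:19321002-19322672, where the annotation has no gene. Smaller stretches were found for Farsa (5.54%), Wars2 (3.22%), Qars (2.41%) and Tars2 (1.78%), and none for the others. Reads from a copy may be counted at these genes, and the share of such reads was not tested. Neither Iars nor Lars2 was called in the WT stage comparison, and the median of the other 33 genes there was 0.11, beside 0.27 for the 35. Summed over the 15 mitochondrial genes, Lars2 supplied most of the FPKM, with 864 of 1008 in WT zygote library 1. Rn45s, the ribosomal RNA precursor, chosen after its values were seen, was at 5930.0 and 5476 FPKM in cKO zygotes, where Lars2 was lowest, and at 1 in the other 6 libraries, and any part of ribosomal RNA in the Lars2 values was not tested.

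Exons of several genes overlap those of a neighbour, and the libraries did not keep the strand. Iars2 shares 2018 exon bases with Rab3gap2, Vars 304 with D17H6S56E-5, Nars2 284 with C230038L03Rik and Farsb 265 with Sgpp2. Hars and Hars2 lie head to head and share 195. Mars shares 68 with Ddit3, itself a stress response gene, and Ears2 89 with Ubfd1. Iars2, Vars and Nars2, with the longest overlaps, stayed under 2 FPKM in all 8 libraries. Usp16 shares 193 exon bases with Cct8.

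Several cytosolic synthetase genes are known targets of ATF4, the transcription factor of the amino acid response, so promoters were searched for the element it binds together with C/EBP proteins, TGATGNAA, on both strands. RefSeq promoter windows (GRCm38.p6, 250 bases before to 50 after the start) were found for 26 of the 35 genes, 13 cytosolic and 13 mitochondrial. The element was in 5 of the 13 cytosolic windows (Aars, Gars, Iars, Tars and Yars) and 0 of the 13 mitochondrial ones, and 3.97% of all 32851 windows held it. Windows around 1 match in each of these 5 genes are shown so that the elements can be compared. They are given 5′ to 3′ on the strand of the gene, with the match in capitals. In the first 4 it reads on the opposite strand.
Aars, chr8:111033840-111033869, plus strand: agcgggtcactTTTCATCAgagcgctctga
Gars, chr6:55037960-55037989, plus strand: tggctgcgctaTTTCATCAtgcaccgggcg
Iars, chr13:49682126-49682155, plus strand: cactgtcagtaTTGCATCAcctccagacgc
Tars, chr15:11399655-11399684, minus strand: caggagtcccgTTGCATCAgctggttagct
Yars, chr4:129189895-129189924, plus strand: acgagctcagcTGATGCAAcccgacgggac
A match describes the letters alone and shows no binding. Of the 5 genes, Aars and Yars rose and Tars fell from WT zygote to WT 2-cell embryo, and Aars and Yars rose in cKO.

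Further promoter elements were searched in the same windows. CCAAT was in 7 cytosolic and 6 mitochondrial windows (37.4% of all windows), the E-box CACGTG in 4 and 1 (7.15%), the ETS element CCGGAAG in 5 and 4 (8.86%), and TATAAA in 1 and 1 (13.6%). The NRF1 palindrome was in none of the 26 (0.971% of all) and the YY1 element in Yars2 alone (0.633%). These shares describe the windows, with no reading of the factors.

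The scaffold proteins of the multi-synthetase complex, Aimp1, Aimp2 and Eef1e1, were all in the table. Aimp1 had 13.3 and 17.0 FPKM in WT and 14.7 and 17.7 in cKO zygotes, and 2.87 and 1.38 in WT and 24.0 and 31.7 in cKO 2-cell embryos. It fell from WT zygote to WT 2-cell embryo (-2.40 ± 0.33, adjusted p = 0.00136) and was higher in cKO than in WT 2-cell embryos (3.24 ± 0.56, adjusted p = 0.0291, not called with the 4 2-cell libraries fitted alone), with an interaction of 3.14 ± 0.58, adjusted p = 0.0386. The cKO embryos thus were above the zygote range and WT 2-cell embryos below it. Aimp2 had 41.7 and 20.2 FPKM in WT and 35.8 and 24.2 in cKO zygotes, and 181 and 249 in WT and 389.7 and 162 in cKO 2-cell embryos and rose in WT and in cKO (2.83 ± 0.65, adjusted p = 0.0116, and 3.05 ± 0.96, adjusted p = 0.0478). Eef1e1 had 127 and 75.1 FPKM in WT and 186 and 148 in cKO zygotes, and 61.6 and 43.3 in WT and 254 and 343 in cKO 2-cell embryos, and its log2 difference between cKO and WT 2-cell embryos was 2.49 ± 0.79, adjusted p = 0.117. Of the 3 scaffold genes, 1 was called higher in cKO 2-cell embryos and 0 lower (beside 0.834% and 5.93% of all genes), with 2 at an unadjusted p under 0.05, while none of the 8 complex enzymes was called and 1 of these had an unadjusted p under 0.05. In zygotes limma called 0 of the 3, with 1 at an unadjusted p under 0.05.

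Relatives of the synthetases and editing enzymes gave 3 higher and 1 lower of 7 in the WT stage comparison (42.9% and 14.3%, beside 36.6% and 14.9% of all genes), and 0 called between genotypes at either stage in limma, with 1 of 7 in zygotes and 2 of 7 in 2-cell embryos at an unadjusted p under 0.05. Pstk, the kinase that prepares serine on selenocysteine tRNA, had 6.95 and 5.72 FPKM in WT and 6.59 and 6.48 in cKO zygotes, and 13.3 and 17.0 in WT and 4.95 and 3.77 in cKO 2-cell embryos. Its log2 difference at the 2-cell stage was -1.59 ± 0.40, adjusted p = 0.0685. Prorsd1, a relative of the proline editing domain, had 5.37 and 4.12 FPKM in WT and 4.08 and 4.54 in cKO zygotes, and 22.8 and 21.7 in WT and 16.2 and 43.3 in cKO 2-cell embryos and rose in WT (2.03 ± 0.31, adjusted p = 0.00225).

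Mitochondria charge glutamine tRNA by way of glutamate and formylate methionine tRNA, and 4 of 6 symbols for these steps were measured. In WT 2 of the 4 rose with stage and 0 fell (beside 36.6% and 14.9% of all genes), in cKO 1 rose (beside 20.7%), and between genotypes limma called 0 at either stage, with 0 at an unadjusted p under 0.05. Gatc, a subunit of the amidotransferase, had 3.02 and 2.63 FPKM in WT and 4.62 and 2.68 in cKO zygotes, and 14.5 and 11.9 in WT and 3.68 and 10.95 in cKO 2-cell embryos (1.89 ± 0.47, adjusted p = 0.0163 for stage in WT). Mtfmt, the formyltransferase, had 33.1 and 25.8 FPKM in WT and 21.9 and 26.4 in cKO zygotes, and 23.8 and 14.9 in WT and 17.2 and 57.0 in cKO 2-cell embryos, and its differences passed in no comparison.

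Of 17 genes for tRNA end processing, splicing and export, 9 rose and 0 fell in the WT stage comparison (52.9% and 0%, beside 36.6% and 14.9% of all genes), and 9 rose and 0 fell in cKO (beside 20.7% and 18.2%), with medians of 1.40 and 2.44. None was called between genotypes at the 2-cell stage in limma, where 5 had an unadjusted p under 0.05, but the median was 0.76 beside -0.30 for all genes, and 10 of the 17 exceeded the WT range in each cKO library (58.8%, beside 14.0% of all genes) and 2, Tsen34 and Tsen54, lay below it (11.8%, beside 43.4%). In zygotes 0 were called and 3 had an unadjusted p under 0.05. Rpp38, a subunit of RNase P, had 27.1 and 34.0 FPKM in WT and 48.4 and 41.8 in cKO zygotes, and 41.3 and 21.8 in WT and 106 and 129 in cKO 2-cell embryos (1.92 ± 0.55, adjusted p = 0.0934 for genotype at the 2-cell stage). Tsen15, a subunit of the tRNA splicing endonuclease, had 3.03 and 2.51 FPKM in WT and 5.66 and 3.16 in cKO zygotes, and 13.9 and 15.7 in WT and 82.2 and 39.7 in cKO 2-cell embryos (1.88 ± 0.84, adjusted p = 0.230). Rpp30 and Pop4 are further RNase P subunits. Rpp30 had 27.8 and 28.7 FPKM in WT and 36.1 and 34.7 in cKO zygotes, and 95.1 and 61.1 in WT and 206 and 283 in cKO 2-cell embryos. Pop4 had 90.7 and 63.8 FPKM in WT and 88.0 and 69.4 in cKO zygotes, and 56.8 and 48.6 in WT and 97.7 and 119 in cKO 2-cell embryos. These 4 were all higher in cKO by means, without a call.

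Of 24 amino acid response genes, 23 were measured. In WT 10 rose and 1 fell with stage (43.5% and 4.35%, beside 36.6% and 14.9% of all genes), and in cKO 7 rose and 6 fell (30.4% and 26.1%, beside 20.7% and 18.2%). At the 2-cell stage 0 were higher and 3 lower in cKO (Mthfd2, Pycr1 and Slc3a2; 13.0%, beside 5.93% of all genes), with a median of -0.77 beside -0.30 for all genes (-0.37 beside 0 with median-ratio scaling, -0.35 beside 0.01 with quantile normalization), and none of the 3 was called with the 4 2-cell libraries fitted alone. Both cKO libraries lay below the WT range for 11 of the 23 (47.8%, beside 43.4% of all genes) and above it for 2, Psat1 and Phgdh. In the main fit, the interaction was called lower for Mthfd2, Pycr1 and Slc3a2. In zygotes limma called 0, with 2 at an unadjusted p under 0.05. Mthfd2, of mitochondrial folate metabolism, had 141 and 143 FPKM in WT and 149 and 133 in cKO zygotes, and 122 and 123 in WT and 24.0 and 22.9 in cKO 2-cell embryos (-2.33 ± 0.32, adjusted p = 0.0174 for genotype at the 2-cell stage). Slc3a2, the heavy chain of amino acid transporters, had 59.7 and 56.4 FPKM in WT and 77.6 and 62.1 in cKO zygotes, and 64.9 and 105 in WT and 11.8 and 12.6 in cKO 2-cell embryos (-2.67 ± 0.51, adjusted p = 0.0373). Pycr1, of proline synthesis, had 1.18 and 1 FPKM in WT and 1.12 and 1 in cKO zygotes, and 3.32 and 4.58 in WT and 1 and 1 in cKO 2-cell embryos (-1.30 ± 0.23, adjusted p = 0.0301). Shmt2, for serine to glycine conversion, had 28.1 and 25.9 FPKM in WT and 25.3 and 21.1 in cKO zygotes, and 27.8 and 26.1 in WT and 6.70 and 1.02 in cKO 2-cell embryos (-2.83 ± 0.61, adjusted p = 0.0505). Psat1 and Phgdh are genes of serine synthesis, and neither passed between genotypes. Psat1 had 1 and 1 FPKM in WT and 1.02 and 1 in cKO zygotes, and 81.1 and 106 in WT and 316 and 189 in cKO 2-cell embryos (1.39 ± 0.36, adjusted p = 0.0766). Phgdh had 3.55 and 2.21 FPKM in WT and 3.18 and 1.95 in cKO zygotes, and 7.68 and 16.1 in WT and 45.2 and 35.0 in cKO 2-cell embryos and was 3.37-fold higher in cKO 2-cell embryos, without a call (1.74 ± 0.84, adjusted p = 0.259). Psph, of the same pathway, had 2.69 and 3.31 FPKM in WT and 2.14 and 2.47 in cKO zygotes, and 18.3 and 17.5 in WT and 5.32 and 19.5 in cKO 2-cell embryos, with overlap between genotypes at the 2-cell stage. Atf4 itself had 93.8 and 89.7 FPKM in WT and 104 and 77.7 in cKO zygotes, and 368 and 343 in WT and 249 and 401 in cKO 2-cell embryos, and its log2 difference between genotypes at the 2-cell stage was -0.17 ± 0.55, adjusted p = 0.897.

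Of the 5 measured genes among the eIF2 kinases and their partner GCN1, which sense uncharged tRNA and other stresses, 1 rose and 1 fell with stage in WT (20% each, beside 36.6% and 14.9% of all genes) and 0 rose and 1 fell in cKO (beside 20.7% and 18.2%). Between genotypes limma called 0 at either stage, with 0 in zygotes and 1 in 2-cell embryos at an unadjusted p under 0.05. Eif2ak4, for the kinase GCN2 that binds uncharged tRNA, had 15.7 and 16.3 FPKM in WT and 15.1 and 15.6 in cKO zygotes, and 6.57 and 5.94 in WT and 1.96 and 1 in cKO 2-cell embryos. It fell with stage in both genotypes (-1.23 ± 0.20, adjusted p = 0.00309 in WT, and -2.75 ± 0.30, adjusted p = 0.00138 in cKO). Eif2ak3, the kinase of the endoplasmic reticulum, had 1.65 and 1 FPKM in WT and 1.96 and 1.10 in cKO zygotes, and 6.83 and 9.82 in WT and 3.84 and 5.68 in cKO 2-cell embryos, and rose with stage in WT (2.00 ± 0.41, adjusted p = 0.00766). Eif2ak1, the heme-regulated kinase, had 27.3 and 25.5 FPKM in WT and 29.9 and 26.3 in cKO zygotes, and 14.1 and 17.5 in WT and 21.8 and 8.39 in cKO 2-cell embryos.

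Markers of the stages and of other cells were measured beside the synthetases. Of 11 oocyte genes, 0 rose and 9 fell with stage in WT (81.8% lower, beside 36.6% higher and 14.9% lower over all genes), and 1 was lower in cKO 2-cell embryos (Bmp15, -2.85 ± 0.32, adjusted p = 0.0100), 9.09% of the list beside 5.93% of all genes. Both cKO 2-cell libraries lay below the WT range for 6 of the 11 (54.5%, beside 43.4% of all genes) and above it for 2 (18.2%, beside 14.0%), and the median log2 difference was -0.91. Dppa3 was the most abundant in every library, at 5681 and 6280.1 FPKM in WT and 6656 and 6984 in cKO zygotes, and 2958 and 2472 in WT and 5888 and 8774 in cKO 2-cell embryos, and higher in both cKO than in both WT 2-cell libraries, without a call (1.41 ± 0.48, adjusted p = 0.135). Bmp15, a growth factor of the oocyte, had 1883 and 1799.6 FPKM in WT and 2025 and 2074 in cKO zygotes, and 531 and 536 in WT and 79.7 and 67.5 in cKO 2-cell embryos. Zp1, of the zona pellucida, had 73.6 and 41.8 FPKM in WT and 60.7 and 46.7 in cKO zygotes, and 38.0 and 55.7 in WT and 16.6 and 15.0 in cKO 2-cell embryos. Of 9 measured 2-cell genes, 9 rose in WT (beside 36.6% of all genes) and 6 in cKO (66.7%, beside 20.7%), and Zscan4f and Dub1 were lower in cKO 2-cell embryos (-2.68 ± 0.55, adjusted p = 0.0444, and -2.51 ± 0.24, adjusted p = 0.00838), 22.2% of the list beside 5.93% of all genes. Both cKO 2-cell libraries lay below the WT range for 8 of the 9 (88.9%, beside 43.4% of all genes), with a median log2 difference of -1.67. Zscan4f had 1 and 1 FPKM in WT and 1.16 and 1 in cKO zygotes, and 17.9 and 29.1 in WT and 1.07 and 5.66 in cKO 2-cell embryos, and Dub1 had 1 and 1 FPKM in WT and 1 and 1 in cKO zygotes, and 20.03 and 20.7 in WT and 2.86 and 2.65 in cKO 2-cell embryos. In zygotes limma called 0 of either list between genotypes, with 2 oocyte genes and 0 of the 2-cell genes at an unadjusted p under 0.05. The summed level of the 2-cell genes was 11.5 and 10.4 FPKM in WT and 14.1 and 11.5 in cKO zygotes, and 674 and 910.1 in WT and 322 and 417 in cKO 2-cell embryos, with Zfp352 or Eif1a the most abundant in 2-cell embryos and Zscan4d in zygotes. Zfp352 reached 280.3 and 468 FPKM in WT and 125 and 103 in cKO 2-cell embryos, and Eif1a 73.8 and 70.3 in WT and 118 and 139 in cKO. Of the oocyte genes, Zp1 and Zp3 did not pass between the WT stages. Whether a different pace of development takes part in the synthetase values was not tested.

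Of 18 cumulus and granulosa genes, 3 were in the table. Their summed level was 28.7 and 24.3 FPKM in WT and 24.8 and 24.6 in cKO zygotes, and 4.38 and 10.3 in WT and 3 and 3.32 in cKO 2-cell embryos. Cyp19a1 was the most abundant in zygotes, at 26.7 and 22.3 FPKM in WT and 22.8 and 22.6 in cKO, and 1 and 1.78 in WT and 1 and 1 in cKO 2-cell embryos. Foxl2 and Tnfaip6 were at the floor in zygotes, and Tnfaip6 was highest in WT 2-cell library 2 at 7.45. Of 8 sperm genes 4 were measured, with a summed level of 23.1 and 16.5 FPKM in WT and 19.7 and 18.7 in cKO zygotes, and 7.28 and 11.4 in WT and 4.97 and 4 in cKO 2-cell embryos. Prm2 was the most abundant in zygotes (20.1 and 13.5 FPKM in WT and 15.7 and 15.7 in cKO), and Tnp1 in 3 libraries of 2-cell embryos, at 4.28 and 5.69 FPKM in WT and 1.97 in cKO library 1. Prm1 was at the floor except in WT 2-cell library 2 (3.03). In limma 1 sperm gene, Tnp1, was lower in cKO 2-cell embryos (-1.29 ± 0.23, adjusted p = 0.0313), 25% of the 4 measured beside 5.93% of all genes. No cumulus or granulosa gene was called between genotypes, with 0 at an unadjusted p under 0.05 at either stage. Cyp19a1 and Prm2 fell with stage in both genotypes, while Tnp1 and Tnfaip6 rose in WT. Over all genes 14.9% fell in WT and 18.2% in cKO, and 36.6% rose in WT. The part of other cells in the synthetase values was not tested.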

How the data were processed

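RNA-seq of 8 libraries was analysed, and the 7 ChIP samples of the series were not analysed here. The authors mapped reads to mm9 with TopHat2 2.1.1, computed FPKM with Cufflinks 2.2.1 and deposited what they call normalized FPKM, with values under 1 set to 1. The sources used here give neither the gene annotation nor the further normalization. limma 3.58.1 in R 4.3.3 was fitted to log2(FPKM + 1) of all 14392 genes, with a pseudocount of 1, a prior that follows mean level, 1 model over the 4 groups and each group's own spread from array weights, and p-values were adjusted by Benjamini-Hochberg over all genes (called at 0.05). The 3-fold rule used the ratio of group means. Other steps used Python 3.11.15, numpy 2.4.6 and pandas 2.3.3. The limma fit was tested on simulated data for the cKO and WT 2-cell comparison alone, with changed genes set well above the floor.

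Named in full were Usp16 and, in each compartment, the 2 highest and 2 lowest by mean level and the 2 largest differences in each direction in each comparison. From the lists of scaffold proteins, relatives and editing enzymes, mitochondrial glutamine and formylmethionine charging, tRNA processing, amino acid response, eIF2 kinases, and oocyte, 2-cell, cumulus and granulosa, and sperm markers, the 2 with the largest difference at the 2-cell stage and the 2 with the highest mean were named. 1 of these genes and 1 promoter match are not reported here. Pycr1, Psat1, Phgdh, Psph, Tsen34 and Tsen54 lay outside this rule and were chosen after their values were seen. Members and lists were chosen with earlier results of these data known. Alternatives covered the pseudocount, filter, fold threshold, scaling, spread, libraries fitted, replicate block, compartment lists and leaving out each library. The median without Lars2 was added after seeing the data.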

Additional observations from a re-analysis of the deposited data

Results flagged for a closer look

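Wars2, the mitochondrial tryptophan enzyme, differed between genotypes in its change from zygote to 2-cell embryo, by a log2 interaction of 1.45 (adjusted p = 0.0350 in limma). The call was kept in 7 of 14 alternatives and lost under equal-sum scaling and without any 1 of the 6 libraries of WT zygotes, cKO zygotes and WT 2-cell embryos. For Hars, the cytosolic histidine enzyme, both cKO libraries were below both WT libraries in zygotes and above them at the 2-cell stage, and the interaction of 0.68 did not pass (adjusted p = 0.382).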

How the results depend on the processing

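The cytosolic median stayed above the mitochondrial one under every alternative run. In zygotes the difference moved to 4.35 in WT and 4.34 in cKO with no pseudocount, to 3.37 and 3.26 over amino acids with an enzyme in each compartment, and to 3.38 and 3.34 without Gars and Kars. In 2-cell embryos it was 1.51 in WT and 1.12 in cKO in the main setting. It moved there to 1.67 and 1.20 with no pseudocount. Over amino acids with an enzyme in each compartment it was 1.24 and 0.68, and without Gars and Kars 1.28 and 0.92. In WT zygotes it was 3.51 without Lars2, an alternative chosen after seeing the data. Without 1 library it ranged from 3.46 to 3.49 in WT zygotes, 3.39 to 3.48 in cKO zygotes, 1.30 to 1.71 in WT 2-cell embryos and 0.58 to 1.66 in cKO 2-cell embryos.

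Genes lower with stage in WT numbered 11 under median-ratio scaling and 12 under quantile normalization, beside 2945 and 4328 of all 14392 genes. By the 3-fold rule 1 was lower when every library had to pass it. Quantile normalization turned Pars2 to -0.35. Genes lower with stage in cKO numbered 5 under equal-sum scaling, 5 under quantile normalization and 6 with 1 spread for all groups. Over all genes these were 2507, 3185 and 3896. Between genotypes at the 2-cell stage, 6 were higher and 1 lower with 1 spread, beside 887 and 3538 of all 14392 genes. At that stage 1 was higher with no pseudocount, median-ratio scaling or quantile normalization, beside 104, 245 and 280 of all genes. By fold there, 5 were higher and 2 lower at 2-fold, 4 higher under median-ratio scaling, 0 under equal-sum scaling and 0 when every library had to pass. In zygotes 1 was lower at 2-fold. The interaction was called higher for 2 genes with 1 spread, beside 227 of all 14392 genes. It was called higher for 0 under equal-sum scaling and the stricter filter, which tested 29 of the 35. Except for that filter, the cause was not tested.

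Leaving out 1 library gave 4 to 16 genes higher and 1 to 8 lower for stage in WT, 9 to 16 and 3 to 5 in cKO, 0 to 3 and 0 to 1 between genotypes at the 2-cell stage, and 0 to 3 and 0 to 1 for the interaction. By the 3-fold rule it gave 2 to 4 lower for stage in WT, 3 to 5 lower in cKO, and 1 to 3 higher and 0 to 5 lower between genotypes at the 2-cell stage. Without cKO 2-cell library 2 these counts include Vars and Nars2 as higher in cKO 2-cell embryos, which were above the floor only in the library kept, so these calls carry no weight. That applies to Sars2 too, called higher with stage in cKO without that library. The same holds for Iars2 without WT 2-cell library 1, which in WT was above the floor only in library 2. It also holds for Sars2, called lower without cKO 2-cell library 1, as it was at the floor in library 2. The lone library left was assumed to vary like the other genotype of its stage.

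Replicate numbers are shared by the groups without a stated pairing. With the replicate number as a block, 14 rose and 8 fell with stage in WT and 13 rose and 4 fell in cKO, 0 were called between genotypes at either stage, and 1 was called for the interaction. Deviations of same-numbered libraries correlated across genes at 0.497 between WT and cKO zygotes and at -0.239 between WT and cKO 2-cell embryos. Values at the floor of 1 FPKM, 2 libraries per group and the unknown depth limit what these data resolve.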
